A study of Mus musculus with 34 samples.

Results

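Voltage-gated sodium and calcium channels are described here across the brains of aged mice lacking HDAC1, a histone deacetylase, and of 5XFAD mice, a transgenic model of amyloid deposition. The members are all genes whose symbol begins with Cacn, or with Scn followed by a digit, and 40 of the 23951 genes listed in each file met that rule. They comprised 10 sodium channel alpha subunits, 4 sodium channel beta subunits, 10 calcium channel alpha1 subunits of the Cav1, Cav2 and Cav3 classes, 4 alpha2delta subunits, 4 calcium channel beta subunits and 8 gamma subunits. RNA-seq of hippocampal tissue was analysed for 4 control (Hdac1f/f), 5 Hdac1 cKO (Hdac1f/f, Nestin-Cre), 6 5XFAD (Hdac1f/f, 5XFAD) and 5 compound transgenic mice (Hdac1f/f, Nestin-Cre, 5XFAD). Nuclei sorted for GFAP, an intermediate filament protein of astrocytes, were analysed from the cortex of 3 control (Hdac1f/f) and 4 Hdac1 cKO (Hdac1f/f, Nestin-Cre) mice. Every mouse thus carried floxed Hdac1 alleles, and the floxed mice without Cre and without 5XFAD served as controls. Nestin-Cre acts in the progenitors of neurons and astrocytes, so that microglia of Hdac1 cKO mice keep HDAC1. The 5XFAD transgenes are driven by the Thy1 promoter, which is active in neurons. The mice were 13 months old, or 13 to 14 months old in the control and Hdac1 cKO hippocampal groups, and each library came from 1 mouse.

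Sodium channels open on depolarization and carry the upstroke of the action potential. Each consists of a pore-forming alpha subunit and of small beta subunits that modify gating and act as adhesion molecules. Calcium channels couple depolarization to transmitter release (Cav2), to dendritic calcium entry and transcription (Cav1, the L-type) and to burst firing (Cav3, the T-type). Their alpha2delta and beta subunits carry the pore to the membrane and set how much current flows. Most genes named Cacng encode transmembrane AMPA receptor regulatory proteins (TARPs), which traffic and gate glutamate receptors, whereas Cacng1 encodes the gamma subunit of the skeletal muscle calcium channel.

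HDAC1 is among the deacetylases recruited by the repressor REST, whose binding element, RE1, lies near many neuronal channel genes. The consensus letters of RE1 were searched on both strands of the mm9 genome within 5000 bases of each gene start. They were found at 2 of the 40 members (5%) and at 23 of all 22238 genes with a start (0.103%). The matches are shown because these are the members at which the element was found, with the letters that the search fixed in capitals and those it left free in lower case.
Scn2a1 (chr2:65458021-65458041, plus strand, mm9): TTCAGcACCacGGACAGcaCC
Cacng7 (chr7:3328507-3328527, minus strand, mm9): TTCAGgACCatGGACAGcaCC
The match near Scn2a1, which encodes an axonal sodium channel of principal neurons, lay at −883 bases from the gene start, and that near the TARP gene Cacng7 at −4538 bases, both upstream and outside the gene. A match is a run of letters and does not show that REST was bound there.

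Depth and the labels were examined first. Libraries of 1 group correlated with each other at Pearson r between 0.964 and 0.976 in hippocampus and between 0.930 and 0.948 in nuclei, across genes. Relative depth, read from the smallest steps between FPKM values, ranged from 0.752 to 2.36 in hippocampus and from 0.868 to 1.26 in nuclei. Hdac1 stood at 6.42, 8.71, 10.7 and 5.91 FPKM in the control hippocampi and between 6.10 and 9.64 FPKM in 5XFAD mice. It lay below all of these, between 2.36 and 3.03 FPKM in Hdac1 cKO and between 1.15 and 2.52 FPKM in compound transgenic mice. Its ranges in Hdac1 cKO and compound transgenic mice overlapped. In GFAP+ nuclei it stood at 14.5, 9.91 and 22.3 FPKM in control and at 9.71, 11.5, 5.8 and 8.73 FPKM in Hdac1 cKO mice, so these groups overlapped. In hippocampus the 3′ reads of Thy1 are shared by the gene and the 5XFAD transgenes. There Thy1 lay between 303 and 388 FPKM in mice without 5XFAD and between 1563 and 2357 FPKM in mice carrying it.

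The dissections differed in choroid plexus, the epithelium that secretes cerebrospinal fluid. The 10 choroid plexus markers summed to 595, 17800, 20540 and 13150 FPKM in the 4 control mice and to 112, 78.8, 110, 61.0 and 1638 FPKM in Hdac1 cKO mice (5 libraries). Their sums spanned 57.6 to 8028 FPKM in 5XFAD and 63.7 to 14100 FPKM in compound transgenic mice. All 10 markers were lower in Hdac1 cKO than in control mice by at least 1.5-fold with an unadjusted p under 0.05 (limma), with a median log2 difference of −3.07, as were 6 of the 7 ependymal, 3 of the 8 meningeal fibroblast and 2 of the 9 thalamic markers tested. Thalamic markers summed to at most 111.8 FPKM in control and 36.6 FPKM in Hdac1 cKO mice, and reached 159.3 FPKM in 5XFAD 6 against 29.7 to 49.7 FPKM in the other 5XFAD mice. Above a sum of 1000 FPKM lay 9 libraries: control 2, 3 and 4, Hdac1 cKO 5, 5XFAD 1, 2, 3 and 6 and compound transgenic 1. Results are therefore also given without them, although control 1 is then the sole control, and its spread is taken to be that of the other groups. None of the 10 pan-neuronal markers was a differentially expressed gene (DEG) by these thresholds in any hippocampal comparison. In these bulk samples, fewer cells of a type and less RNA per cell cannot be told apart.

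By FPKM, the highest values among channel genes of the control hippocampus were mostly those of auxiliary subunits. Scn3b, a sodium channel beta subunit, was listed at 72.3 ± 7.82 FPKM (SD, n = 4) and the calcium channel beta subunit Cacnb3 at 48.7 ± 3.22 FPKM. Scn2a1, a sodium channel alpha subunit, stood at 39.6 ± 3.34 FPKM, the TARP gene Cacng3 at 36.0 ± 3.94 FPKM and Scn2b at 35.6 ± 1.6 FPKM, which lay within each other's spread. Scn8a, the sodium channel of the axon initial segment and nodes of Ranvier, followed at 27.0 ± 2.09 FPKM. Pore-forming calcium channel subunits had far lower FPKM values. Cacna1b, the N-type channel of presynaptic terminals, was highest among them at 4.24 ± 0.569 FPKM, the L-type Cacna1d stood at 2.94 FPKM and the T-type Cacna1h at 2.89 FPKM. Cacna2d1, the main alpha2delta subunit, stood at 17.2 ± 3.09 FPKM.

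FPKM divides by transcript length, whereas a 3′ library reads 1 end of each transcript, so FPKM places long transcripts too low in the order. With the division undone (FPKM multiplied by the transcript length of the annotation), Scn2a1 moved from rank 4 to rank 1, Scn3b stood at rank 2 and Scn8a moved from rank 7 to rank 3, while Cacng3, whose transcript is short, moved from rank 5 to rank 12. Between groups the factor of transcript length cancels in a ratio of FPKM. It does not cancel in the tests, which used log2(FPKM + 1) and a filter at a mean of 0.5 FPKM. In the hippocampus 12 members had a mean under 0.5 FPKM. Among these were Scn4a and Cacna1s of skeletal muscle, Scn10a and Scn11a of nociceptors and the retinal Cacna1f. Cacng1 was listed at 0 in all 20 hippocampal libraries.

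**Figure D1:**
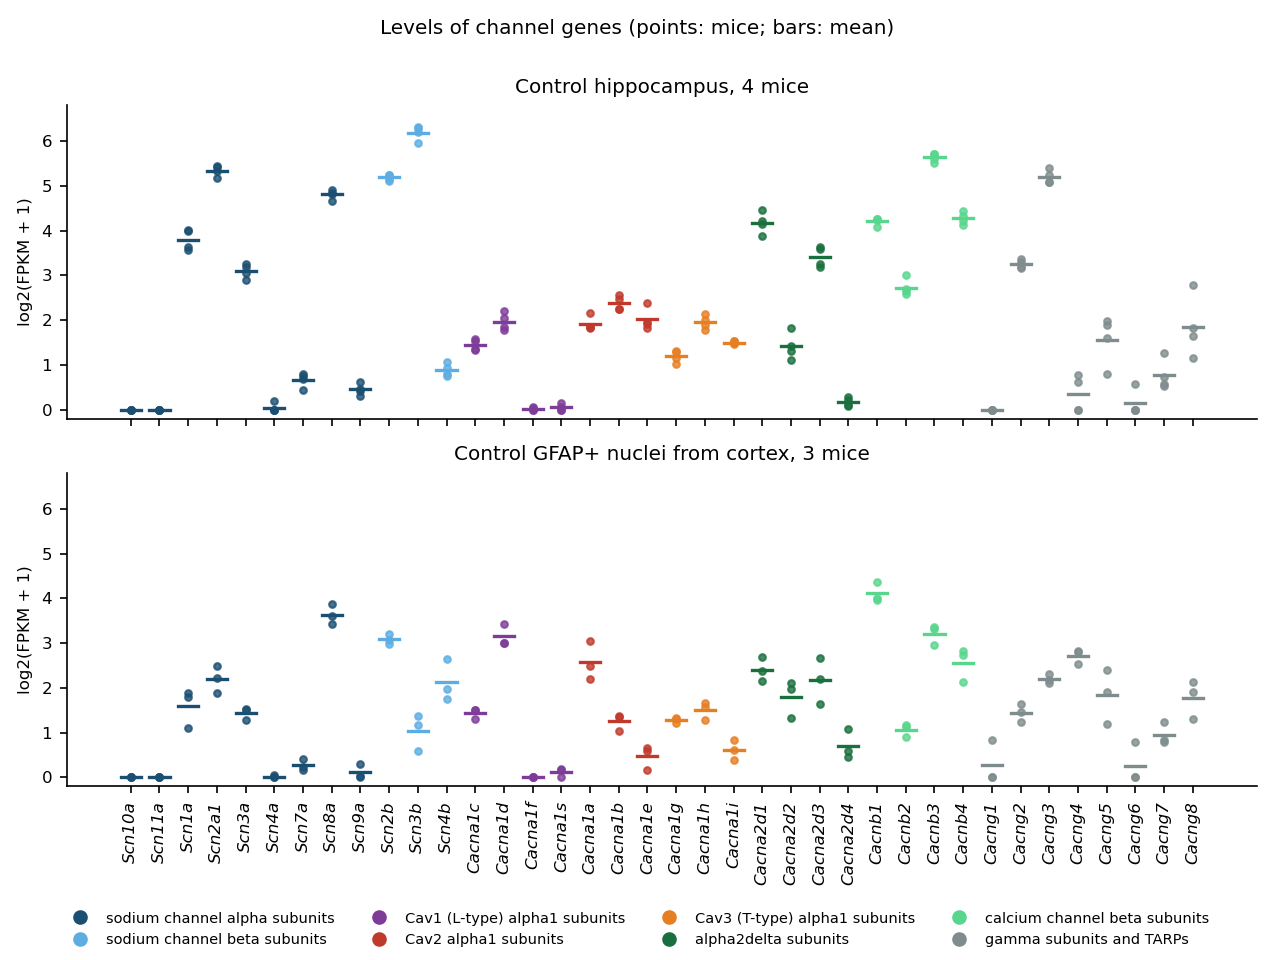
Level of each channel gene as log2(FPKM + 1) in control hippocampus (4 mice) and control GFAP+ nuclei (3 mice), coloured by subunit class, with points for single mice and bars for their mean. Scn3b, Cacnb3, Scn2a1 and Cacng3 are among the highest in hippocampus, Cacnb1, Scn8a and Cacna1d in nuclei.

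The order was different in GFAP+ nuclei of the cortex, where 26 members reached a mean of 1 FPKM, the same number as in hippocampus. In nuclei 11 members had a mean under 0.5 FPKM, and Scn10a and Scn11a were listed at 0 in all 7 libraries. Among the most abundant were the calcium channel beta subunit Cacnb1 at 16.4 ± 2.73 FPKM (SD, n = 3) and Scn8a at 11.5 ± 1.93 FPKM. The L-type channel Cacna1d stood at 7.07, 7.06 and 9.79 FPKM in the control nuclei. The TARP gene Cacng4 stood at 6.09, 4.75 and 5.92 FPKM in the same libraries and at 0, 0.72, 0 and 0.54 FPKM in the control hippocampi. Scn3b was listed at 1.27, 1.59 and 0.497 FPKM in the control nuclei and at 61.3 to 78.8 FPKM in the control hippocampi. These values stand side by side only, since brain region, nuclear against total RNA and library chemistry all differ. The label of the sort was checked against markers: 10 astrocyte markers summed to between 2696 and 3105 FPKM in control nuclei and to between 646 and 724 FPKM in control hippocampus, and 10 pan-neuronal markers to between 224 and 339 FPKM against 2004 to 2331 FPKM. Oligodendrocyte markers summed to between 680 and 1321 FPKM in control nuclei, so RNA of other cell types was present, and its part in the levels of channel genes was not tested.

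The comparison of Hdac1 cKO with control mice asks what loss of HDAC1 does to these genes in the aged hippocampus. Scn8a, Cacnb3, Cacna1i and Cacng3 were higher in every Hdac1 cKO than in every control mouse, by between 1.19-fold and 1.38-fold. Cacna2d2, an alpha2delta subunit, was lower. No member met both thresholds for DEGs (1.5-fold and an unadjusted p under 0.05), and none had an adjusted p under 0.05 (limma, Benjamini-Hochberg over 14265 genes). Of all genes tested, 3.36% were DEGs and 0.154% passed at an adjusted p under 0.05. At an unadjusted p under 0.05, 6 members were higher and 1 was lower among the 29 tested, where 11.7% of all genes passed, 4.91% higher and 6.84% lower. Groups did not overlap for 5 members, these 4 among them and all higher, against 4.23% of all genes, 2.08% higher. Of the 29 members tested, 23 (79.3%) had a higher mean log2 value in Hdac1 cKO mice, against 49.8% of all genes, and their median log2 difference was 0.10 against 0.00 over all genes. Without the 9 choroid-rich libraries, against control 1 alone, 13 of 27 members tested were higher and 14 lower (median 0.00). The share over all genes in that fit is not given here.

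Cacng3, a TARP of cortical and hippocampal principal neurons, had the lowest p of the members. The gene lies on the plus strand of chromosome 7 (mm9, chr7:129815258-129912905). It was listed at 36.9, 41.2, 33.1 and 32.7 FPKM in control and at 50.4, 51.2, 52.5, 50.2 and 45.3 FPKM in Hdac1 cKO mice. The lowest Hdac1 cKO mouse was above the highest control mouse. The log2 difference was 0.46 (SE 0.09, 95% interval 0.27 to 0.66, adjusted p = 0.078, limma). An exact permutation test of the mice gave p = 0.00794, the smallest that 4 against 5 mice allow. Without control 1 its adjusted p was 0.0361, the sole member to pass when 1 mouse was left out of this comparison. Among the other gamma subunits, Cacng2 (stargazin) had means of 8.55 FPKM in control and 8.93 FPKM in Hdac1 cKO mice, a log2 difference of 0.05 with a 95% interval of −0.21 to 0.31 (limma).

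Among sodium channels, Scn8a was listed at 27.8, 29.0, 24.1 and 27.2 FPKM in control and at 34.9, 31.3, 32.1, 30.1 and 33 FPKM in Hdac1 cKO mice, without overlap. Its log2 difference was 0.25 (SE 0.09, adjusted p = 0.287, limma). The other large alpha subunits lay close to control, with log2 differences of 0.08 for Scn2a1 (95% interval −0.15 to 0.30), −0.05 for Scn1a and 0.13 for Scn3a.

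Among calcium channel genes, Cacnb3, which carries calcium channels to the membrane (mm9, chr15:98462651-98474961, plus strand), was listed at 44.7, 47.4, 51.3 and 51.4 FPKM in control and at 51.5, 61.4, 59.3, 64.0 and 60.7 FPKM in Hdac1 cKO mice. The lowest Hdac1 cKO mouse was just above the highest control mouse. The log2 difference was 0.28 (SE 0.09, adjusted p = 0.232, limma). The T-type Cacna1i stood at 1.79, 1.75, 1.88 and 1.88 FPKM in control and at 2.81, 2.89, 2.18, 2.18 and 2.91 FPKM in Hdac1 cKO mice, a log2 difference of 0.34 (SE 0.14, adjusted p = 0.353, limma). Cacna2d3 stood at 11.4, 11, 8.56 and 8.08 FPKM in control and at 10.3, 14.0, 14.7, 12.7 and 14.0 FPKM in Hdac1 cKO mice. The groups of this alpha2delta subunit overlapped through 1 Hdac1 cKO mouse, and its log2 difference was 0.40 (SE 0.14, adjusted p = 0.272, limma). All 3 Cav2 subunits, Cacna1a, Cacna1b and Cacna1e, had log2 differences between 0.04 and 0.07, and none passed the test.

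Markers of dentate granule and pyramidal cells moved the same way as these members. The 12 markers summed to between 489 and 578 FPKM in control and to between 581 and 676 FPKM in Hdac1 cKO mice, with a median log2 difference of 0.20 and no DEG. Their part in the differences of channel genes was not tested. Without the 9 choroid-rich libraries, the log2 differences against control 1 alone were 0.46 for Cacng3 and 0.39 for Cacnb3, each with an unadjusted p under 0.05 (limma). Those of Scn8a (0.20), Cacna1i (0.32) and Cacna2d3 (0.15) did not pass.

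**Figure D2:**
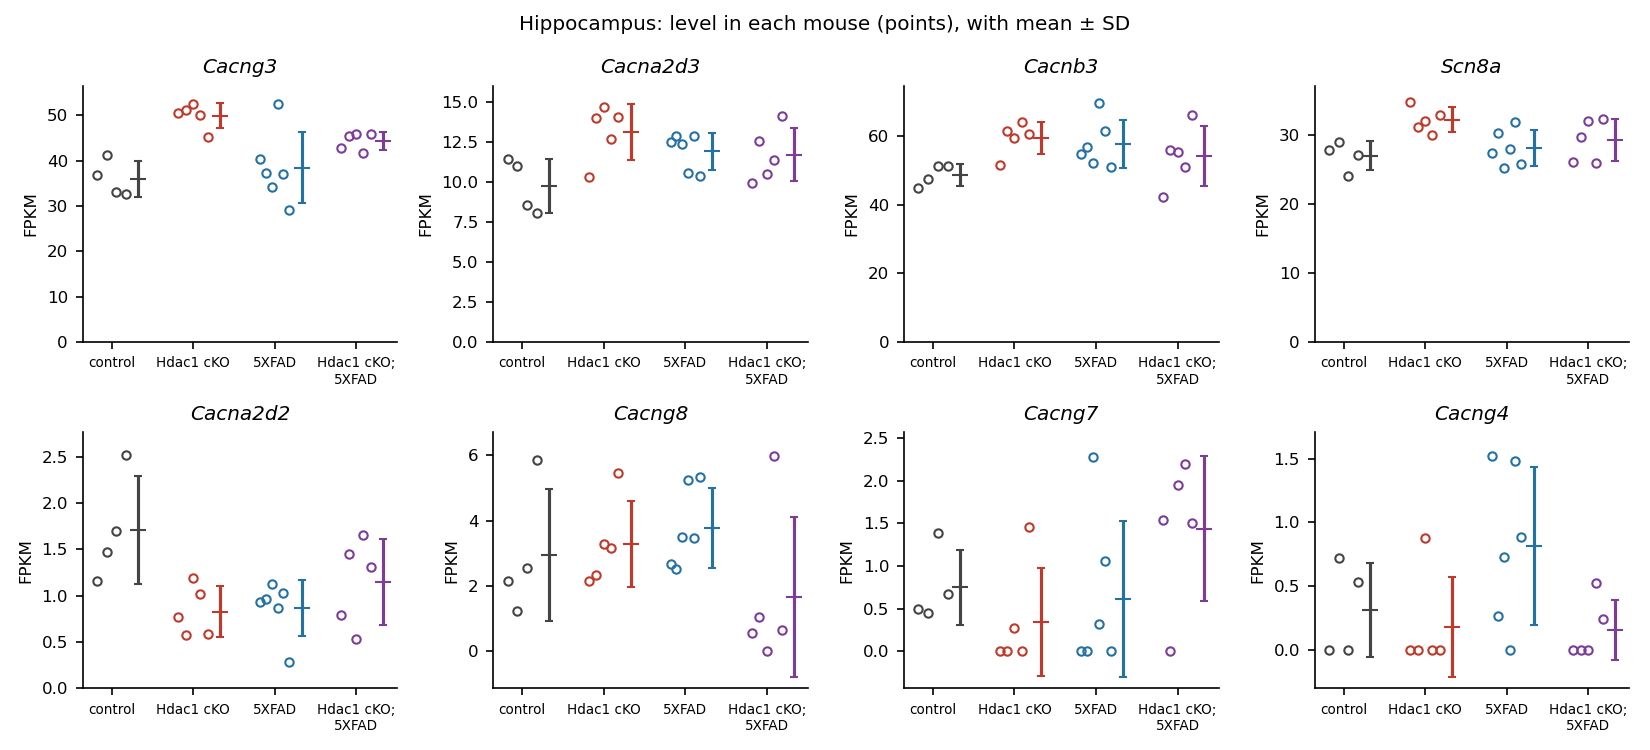
FPKM of named channel genes in each mouse of the 4 hippocampal groups (points), with the mean and SD (bars). Cacng3, Cacnb3 and Scn8a in Hdac1 cKO mice lie above all 4 control mice, and Cacng8 in compound transgenic mice is low in all but 1 mouse.

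Cacna2d2, an alpha2delta subunit prominent in Purkinje cells (mm9, chr9:107301943-107431677, plus strand), was the sole member lower at an unadjusted p under 0.05 in Hdac1 cKO mice. It was listed at 1.16, 1.48, 1.69 and 2.52 FPKM in control and at 0.77, 0.58, 1.19, 1.02 and 0.59 FPKM in Hdac1 cKO mice. The groups overlapped through control 1 and Hdac1 cKO 3. The log2 difference on the log2(FPKM + 1) scale was −0.56 (SE 0.19, adjusted p = 0.263, limma), a ratio of 0.68. In 5XFAD mice the lowest, median and highest values were 0.287, 0.949 and 1.13 FPKM, all below the 4 control mice. The lowest was that of 5XFAD 6, the library with the most thalamic markers (159.3 FPKM). Control 4, with 111.8 FPKM of thalamic markers, had the highest Cacna2d2 value in hippocampus, 2.52 FPKM. Ependymal markers summed to 151, 227, 286 and 342 FPKM in control 1 to 4. The part of these cells in the Cacna2d2 values was not tested. In 5XFAD mice the log2 difference was −0.53 (SE 0.19, adjusted p = 0.339, limma). An exact permutation test gave p = 0.00476, the smallest possible for 4 against 6 mice. Cacna2d2 stood at 1.16 FPKM in control 1 and at 1.48 to 2.52 FPKM in the choroid-rich control 2, 3 and 4. It stood at 0.59 FPKM in the choroid-rich Hdac1 cKO 5 and at 0.58 to 1.19 FPKM in Hdac1 cKO 1 to 4. The 4 choroid-rich 5XFAD libraries spanned 0.287 to 1.13 FPKM, and 5XFAD 4 and 5 stood at 0.865 and 1.03 FPKM. The choroid-rich compound transgenic 1 stood at 0.788 FPKM, and compound transgenic 2 to 5 spanned 0.536 to 1.65 FPKM. The part of choroid plexus in these values was not tested. Without the 9 choroid-rich libraries the log2 difference was −0.20 (SE 0.31) in Hdac1 cKO and −0.15 in 5XFAD mice, and neither passed at an unadjusted p under 0.05 (limma). With a pseudocount of 0.1 in place of 1, Cacna2d2 was a DEG in both (−0.96 and −0.94). Leaving out 1 mouse also moved the call. Cacna2d2 became a DEG without control 1, control 2, Hdac1 cKO 3 or Hdac1 cKO 4 (−0.66 to −0.59), and in 5XFAD mice without control 1 (−0.64). The promoter window of Cacna2d2 is shown as that of the member that was lowest relative to control in both groups. The 250 bases before its start have a GC content of 74.4%. They hold no GC box GGGGCGGGG, which 10.4% of all 32851 RefSeq promoters hold on either strand in this window, and 1 core GGGCGG (in capitals), which 32.7% hold.
Cacna2d2 (chr9:107399630-107399879, plus strand, RefSeq, GRCm38.p6): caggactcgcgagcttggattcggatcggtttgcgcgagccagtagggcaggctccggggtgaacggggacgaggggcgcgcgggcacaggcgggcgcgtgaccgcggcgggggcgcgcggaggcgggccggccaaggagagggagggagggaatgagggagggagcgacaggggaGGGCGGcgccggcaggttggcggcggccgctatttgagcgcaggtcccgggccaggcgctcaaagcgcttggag
Over all members, 41 promoter windows of 30 genes were in the RefSeq table, of which 5 (12.2%) held the GC box and 15 (36.6%) the core.

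**Figure D3:**
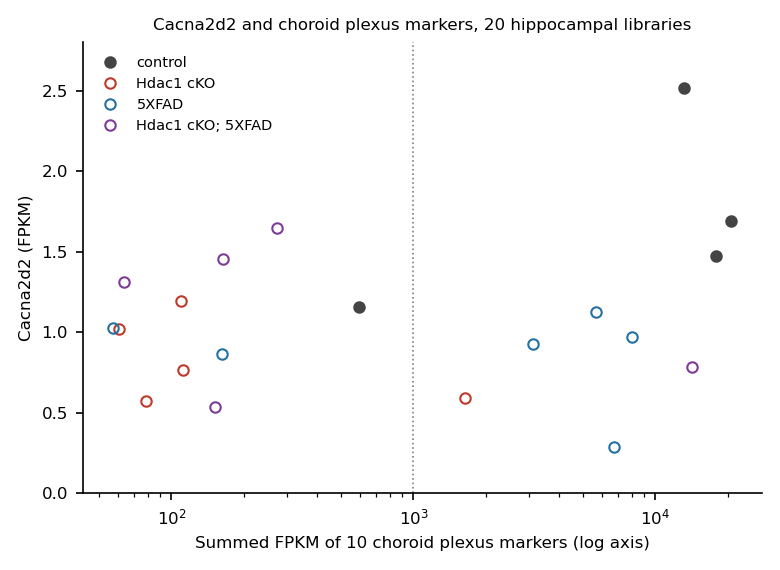
Cacna2d2 level of each hippocampal library (vertical axis, FPKM) against the sum of 10 choroid plexus markers (horizontal axis, FPKM, log scale), by group, with a dotted line at 1000 FPKM. Control 2, 3 and 4 combine marker sums of 13150 FPKM or more with Cacna2d2 between 1.48 and 2.52 FPKM, and control 1, at 595 FPKM, has 1.16 FPKM.

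The comparison of 5XFAD with control mice shares these control mice. The 5XFAD and compound transgenic samples carry later sample numbers than the control and Hdac1 cKO hippocampal samples. Whether all were prepared together is not stated. A difference in preparation cannot be told apart from 5XFAD here or where compound transgenic mice are compared with control or Hdac1 cKO mice. Of 30 members tested none was a DEG, where 2.95% of all genes were, and none had an adjusted p under 0.05, as 0.708% of all genes did. At an unadjusted p under 0.05, 5 members were higher and 1, Cacna2d2, was lower, where 10.7% of all genes passed, 5.25% higher and 5.46% lower. Groups did not overlap for 1 member in each direction, against 2.90% of all genes (1.92% higher and 0.986% lower). The P/Q-type channel Cacna1a, which triggers release at most central synapses, was listed at 2.59, 2.53, 3.45 and 2.62 FPKM in control mice and, from the lowest over the median to the highest, at 3.55, 3.70 and 4.37 FPKM in 5XFAD mice. It was higher in every 5XFAD mouse, with a log2 difference of 0.34 (SE 0.13, adjusted p = 0.365, limma). The R-type channel Cacna1e stood at 2.75, 2.57, 2.88 and 4.22 FPKM in control and at 3.30, 4.42 and 7.90 FPKM in 5XFAD mice (lowest, median and highest), which overlapped. The log2 difference was 0.44 (SE 0.20, adjusted p = 0.452, limma).

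Cacnb3 and Cacna2d3 were also higher at an unadjusted p under 0.05. Cacnb3 ranged from 51.0 to 69.7 FPKM with a log2 difference of 0.23 (SE 0.10, adjusted p = 0.434, limma), and that of Cacna2d3 was 0.27 (SE 0.12, adjusted p = 0.461, limma). Both overlapped with control mice. Without the choroid-rich libraries Cacnb3 stood at 0.54 and passed at an unadjusted p under 0.05 (limma), while Cacna2d3 (0.03), Cacna1a (0.51) and Cacna1e (0.58) did not. Cacng3 did not pass, and its 5XFAD values spread from 29.2 to 52.6 FPKM around a median of 37.2 FPKM. Leaving out 1 mouse made Cacng8 a DEG without control 4 (0.68) and Cacng4 without 5XFAD 4 (0.59), both higher. The median log2 difference of the members was 0.06 against −0.01 over all genes. Microglial markers summed to between 286 and 350 FPKM in control and to between 870 and 1191 FPKM in 5XFAD mice, with 8 of 10 markers higher as DEGs. Of the 7 ependymal markers tested 4 were lower as DEGs, and choroid plexus markers had a median of −1.48 with no DEG. Astrocyte markers summed to between 646 and 724 FPKM in control and to between 759 and 871 FPKM in 5XFAD mice, without overlap, with 1 of 10 higher as a DEG. The part of these cells in the channel values was not tested.

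The third comparison with the same control mice was that of compound transgenic mice. Of 28 members tested none was a DEG, where 4.24% of all genes were, and none passed at an adjusted p under 0.05, where 0.662% did. At an unadjusted p under 0.05, 2 members were higher, where 10.5% of all genes passed and 5.34% were higher. Cacng3 was listed at 42.8, 45.6, 45.9, 41.7 and 45.8 FPKM in compound transgenic mice, each above the highest control mouse at 41.2 FPKM. It was the sole member without overlap, against 4.27% of all genes (2.75% higher), and its log2 difference was 0.30 (SE 0.09, adjusted p = 0.238, limma). Without the choroid-rich libraries that difference was 0.27 and did not pass at an unadjusted p under 0.05 (limma). In the same comparison 7 of 10 choroid plexus markers were lower as DEGs (median −2.67), as were 2 each of the ependymal, thalamic and meningeal fibroblast markers, while 8 of 10 microglial (median 1.34) and 2 of 10 astrocyte markers were higher. In 3 more lists 1 marker was a DEG, lower among granule and pyramidal cell and endothelial markers and higher among those of oligodendrocyte precursors. Their part in the channel values was not tested. Leaving out 1 mouse made 3 TARP genes DEGs: Cacng8 without compound transgenic 4 (−1.25), Cacng7 without compound transgenic 2 (0.70) and Cacng5 without control 2 (−0.72).

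**Figure D4:**
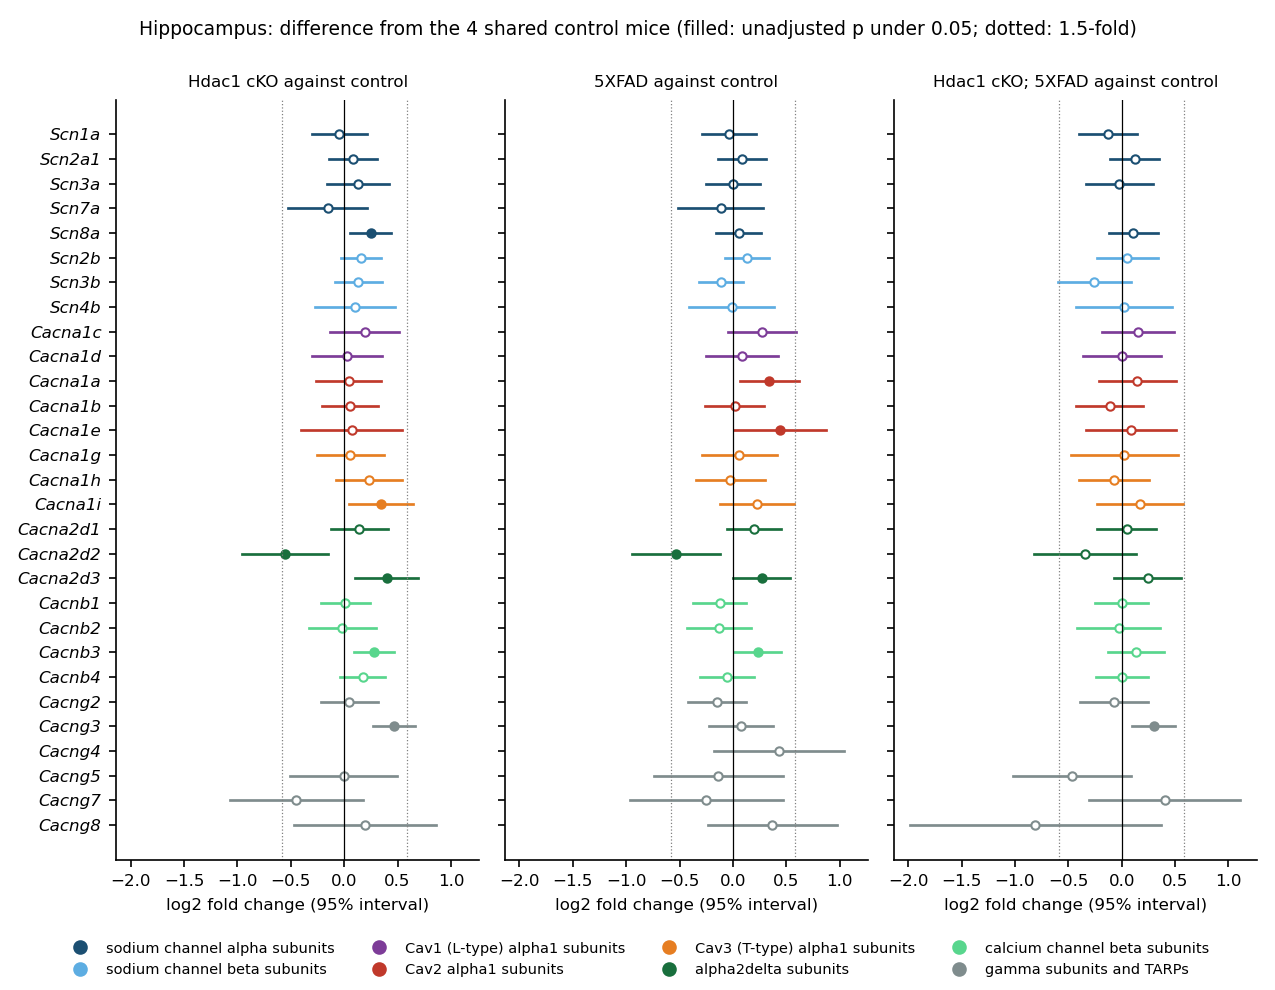
Log2 difference of each channel gene tested, with its 95% interval, in Hdac1 cKO, 5XFAD and compound transgenic mice, each against the same 4 control mice. Filled points have an unadjusted p under 0.05, and dotted lines mark a 1.5-fold difference. Most points for Hdac1 cKO lie between 0 and 0.5, and Cacna2d2 lies below 0 in all 3 comparisons.

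When compound transgenic mice were compared with 5XFAD mice, 2 of 29 members were lower as DEGs, Cacng8 and Cacng4, where 1.28% of all genes were DEGs and 0.593% were lower DEGs. These were also the 2 members with an unadjusted p under 0.05, where 6.61% of all genes passed and 2.70% were lower, and none passed at an adjusted p under 0.05, where 0.00698% of all genes did (limma). No member was free of overlap between these groups, against 0.607% of all genes. Among marker lists, 1 of 12 granule and pyramidal cell markers and 1 of 9 meningeal fibroblast markers were lower and 1 astrocyte and 1 microglial marker higher as DEGs, choroid plexus markers had a median of −1.14 with no DEG, and their part in the channel values was not tested. Cacng8 encodes the main TARP of hippocampal pyramidal cells. It was listed at 0.56, 1.04, 0, 5.99 and 0.66 FPKM in compound transgenic mice and at 2.52, 3.48 and 5.33 FPKM in 5XFAD mice (lowest, median and highest). Of the compound transgenic mice 4 lay below every 5XFAD mouse, and 1 lay above all of them. The log2 difference was −1.18 (SE 0.40, adjusted p = 0.718, limma). These levels rest on few reads. The steps between FPKM values put Cacng8 at 1, 2, 0, 25 and 2 fragments in compound transgenic, at 7 to 22 fragments in 5XFAD and at 4, 5, 5 and 16 fragments in control mice, as the smallest whole numbers these steps allow. The mouse at 25 fragments, compound transgenic 4, had the highest value of all 20 libraries. Its library also stood apart within its group, with oligodendrocyte markers summing to 2217 FPKM (1365 to 1596 FPKM in the other 4), microglial markers to 2290 FPKM (1130 to 1653 FPKM) and astrocyte markers to 988 FPKM (834 to 900 FPKM), and with the highest relative depth of the group, 2.24 against 0.752 to 1.63. The part of these in the Cacng8 value was not tested.

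Cacng4 was listed at 0, 0, 0, 0.53 and 0.24 FPKM in compound transgenic mice, with at most 3 fragments, and at 0 to 1.52 FPKM in 5XFAD mice, with at most 7 fragments. Its log2 difference was −0.60 (SE 0.25, adjusted p = 0.734, limma), and it kept the call in 4 of the 7 leave-one-out fits in which it passed the filter, losing it without compound transgenic 1, 2 or 3 (−0.55 each). In the other 4 of 11 it was not tested. The call was also lost with a pseudocount of 0.1 (−1.82), with quantile normalization (−0.55) and with a replicate block (−0.57). Over the alternative settings that kept all mice, the log2 difference of Cacng8 ranged from −2.20 to −1.09. Without the choroid-rich libraries the log2 difference of Cacng8 was −1.26 and it was not a DEG, and Cacng4 fell below the filter and was not tested. That of Cacng3 between compound transgenic and 5XFAD mice, 0.22, did not pass the test. Cacng7 became a DEG without 5XFAD 3 or compound transgenic 2 (0.89 to 0.95).

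Against Hdac1 cKO mice, 23 of 28 members had a lower mean log2 value in compound transgenic mice, and 5 (17.9%) a higher one, against 47.6% of all genes. This comparison shares the Hdac1 cKO mice with the first, in which 23 of 29 members were higher. The median log2 difference was −0.10 against −0.01 over all genes. The 12 granule and pyramidal cell markers had a median of −0.18 with 1 DEG, lower, and 8 of 10 microglial markers (median 1.32), 2 of 10 astrocyte and 1 of 10 oligodendrocyte markers were higher as DEGs, and their part in the channel values was not tested. Cacng7 was higher and Cacng8 lower as DEGs, where 3.55% of all genes were DEGs, 2.94% higher and 0.613% lower, and no member passed at an adjusted p under 0.05, where 1.49% of all genes did (limma). No member was free of overlap, against 3.34% of all genes. At an unadjusted p under 0.05, 1 member was higher and 5 were lower, where 10.3% of all genes passed, 6.31% higher and 4.03% lower. Scn3b was listed at 79.2, 72, 75.9, 76.6 and 93.1 FPKM in Hdac1 cKO and at 55.4, 68.5, 77.3, 41.7 and 63.9 FPKM in compound transgenic mice. All but 1 of the compound transgenic mice lay below every Hdac1 cKO mouse, and the log2 difference was −0.39 (SE 0.14, adjusted p = 0.316, limma). The lowest value, 41.7 FPKM, was that of compound transgenic 4, whose library stood apart in cell type markers. With 1 mouse left out at a time the difference ranged from −0.48 to −0.26. Cacng5, a TARP gene, was listed at 1.47, 2.20, 2.42, 1.84 and 1.88 FPKM in Hdac1 cKO and at 0.741, 1.54, 0.82, 1.26 and 1.47 FPKM in compound transgenic mice, a log2 difference of −0.46 (SE 0.16, adjusted p = 0.309, limma). With a pseudocount of 0.1 it became a DEG (−0.74). Cacng3 (−0.17) and the T-type Cacna1h (−0.30) were the other members lower at an unadjusted p under 0.05. Without the choroid-rich libraries 20 of 28 members were lower, and the share over all genes in that fit is not given here. There Cacng3 (−0.19) passed at an unadjusted p under 0.05, while Scn3b (−0.30), Cacng5 (−0.39) and Cacna1h (−0.24) did not (limma).

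Cacng7, Cacng8 and the low Cacng6 are neighbours on the plus strand of chromosome 7 (mm9, chr7:3333055-3367810, chr7:3394567-3415366 and chr7:3425423-3435658). Cacng7 was listed at 0, 0, 0.27, 0 and 1.46 FPKM in Hdac1 cKO and at 1.54, 0, 1.95, 2.19 and 1.51 FPKM in compound transgenic mice, with 0 to 7 and 0 to 10 fragments. The groups overlapped, and the log2 difference was 0.85 (SE 0.34, adjusted p = 0.372, limma). It lost the call without Hdac1 cKO 1, 2 or 4 or compound transgenic 3 or 4 (0.73 to 0.77), and without the choroid-rich libraries it was 1.05 and kept the call. Cacng8 was listed at 2.14, 2.34, 3.29, 3.16 and 5.47 FPKM in Hdac1 cKO mice, and its log2 difference was −1.01 (SE 0.44, adjusted p = 0.452, limma). It lost the call without any of Hdac1 cKO 3, 4 or 5 or compound transgenic 1, 2, 3 or 5, where the difference ranged from −1.01 to −0.75. It was −0.75 and lost the call without the choroid-rich libraries as well. Without compound transgenic 4, the mouse with 25 fragments, it was −1.45 with an adjusted p of 0.0118 (limma). Over the alternative settings that kept all mice, the differences ranged from 0.85 to 2.21 for Cacng7 and from −1.98 to −1.01 for Cacng8.

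An interaction term over all 20 hippocampal mice tested whether the effect of Hdac1 loss differed between mice with and without 5XFAD. The term uses the same mice as the pairwise comparisons, so its count is not separate from theirs. In Hdac1 cKO against control mice 23 of 29 members were higher, against 49.8% of all genes. In compound transgenic against 5XFAD mice 19 of 29 were lower and 34.5% higher, against 49.9% of all genes higher. The interaction was below 0 for 23 of 28 members (5 members, or 17.9%, were above 0, against 50.9% of all genes), with a median of −0.21 against 0.01 over all genes. In the libraries low in choroid plexus markers 18 of 28 were below 0, with a median of −0.09, and the share over all genes is not given. The granule and pyramidal cell markers had a median interaction of −0.31 with no DEG, the 10 choroid plexus markers one of 1.75 with no DEG and the 7 ependymal markers tested one of 0.88 with 5 DEGs above 0, and their part in the channel values was not tested. Cacna2d2 (0.75, SE 0.26, adjusted p = 0.41, limma), Cacng7 (1.10, SE 0.51, adjusted p = 0.538) and Cacng8 (−1.38, SE 0.56, adjusted p = 0.49) met the thresholds for DEGs, where 4.07% of all genes did (2.69% above 0 and 1.38% below), and no gene of the table had an adjusted p under 0.05, although 8.97% of all genes passed at an unadjusted p under 0.05 (4.86% above 0 and 4.10% below). At that level, Cacnb3 (−0.38, SE 0.15) and Cacna2d3 (−0.43, SE 0.17) were also below 0. Without the choroid-rich libraries Cacnb3 alone was called, at −0.59, while Cacna2d2 stood at 0.37, Cacng7 at 0.91, Cacng8 at −1.49 and Cacna2d3 at −0.11. Without control 2 the call of Cacng8 was lost (−1.14). That of Cacng7 was lost when any 1 of 14 mice was left out (0.94 to 1.12), and that of Cacna2d2 held without each mouse in turn (0.61 to 0.86). Over the alternative settings that kept all mice, the terms ranged from 0.64 to 1.32 for Cacna2d2 and from 1.08 to 3.48 for Cacng7. The term of Cacng8 ranged from −2.50 to −1.26.

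In GFAP+ nuclei, 1 of 29 members tested, Cacng5, was a DEG between Hdac1 cKO and control mice, where 2.58% of all genes were and 1.34% were lower, and none passed at an adjusted p under 0.05, where 0.0133% of all genes did. Cacng5 was listed at 1.3, 2.78 and 4.31 FPKM in control and at 1.01, 1.02, 1.17 and 1.37 FPKM in Hdac1 cKO nuclei. The lowest control library lay within the Hdac1 cKO range. The values correspond to 37, 86 and 107 fragments in control and to between 28 and 42 fragments in Hdac1 cKO nuclei. The log2 difference was −0.75 (SE 0.30, adjusted p = 0.984, limma). It lost the call without control 3, control 4, Hdac1 cKO 1 or Hdac1 cKO 2 (−0.72 to −0.46).

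Groups did not overlap for 2 members, both higher in Hdac1 cKO nuclei, against 5.72% of all genes, 2.97% higher. Scn8a was listed at 9.76, 13.6 and 11.2 FPKM in control and at 14.4, 16.3, 13.9 and 18.2 FPKM in Hdac1 cKO nuclei, a log2 difference of 0.42 (SE 0.17, adjusted p = 0.984, limma). Cacnb2, the calcium channel beta subunit best known from heart, was listed at 1.18, 1.24 and 0.861 FPKM in control and at 1.58, 2.21, 2.26 and 1.89 FPKM in Hdac1 cKO nuclei, a log2 difference of 0.51 (SE 0.23, adjusted p = 0.984, limma). An exact permutation test gave p = 0.0286 for each, the smallest that 3 against 4 mice allow. Under quantile normalization Cacnb2 stayed free of overlap in nuclei and Scn8a did not. At an unadjusted p under 0.05, 1 member was higher and 1 lower, where 4.70% of all genes passed, 2.44% higher and 2.26% lower.

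Cacnb1 and Cacng4, abundant in nuclei, did not pass the test. Cacnb1 stood at 19.6, 14.7 and 15.0 FPKM in control and at 32.5, 16.0, 25.3 and 19.9 FPKM in Hdac1 cKO nuclei, which overlapped, with a log2 difference of 0.45 (SE 0.23, adjusted p = 0.984, limma). It was called without Hdac1 cKO 2 (0.61), and Cacna2d3 without control 1 (−0.74). Cacng4 had a log2 difference of 0.20 (SE 0.26, adjusted p = 0.986, limma). The median of the members was −0.02 against −0.01 over all genes. Astrocyte markers summed to between 2800 and 3175 FPKM and oligodendrocyte markers to between 478 and 1214 FPKM in the Hdac1 cKO nuclei, with no DEG among either. Choroid plexus markers summed to 20.7, 26.9 and 158 FPKM in control and to between 121 and 275 FPKM in Hdac1 cKO nuclei, with 2 of 8 tested higher as DEGs (median 0.53). Of the other lists, 1 thalamic marker was higher, and 1 endothelial and 1 granule or pyramidal cell marker were lower. The part of these cells in the channel values was not tested.

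**Figure D5:**
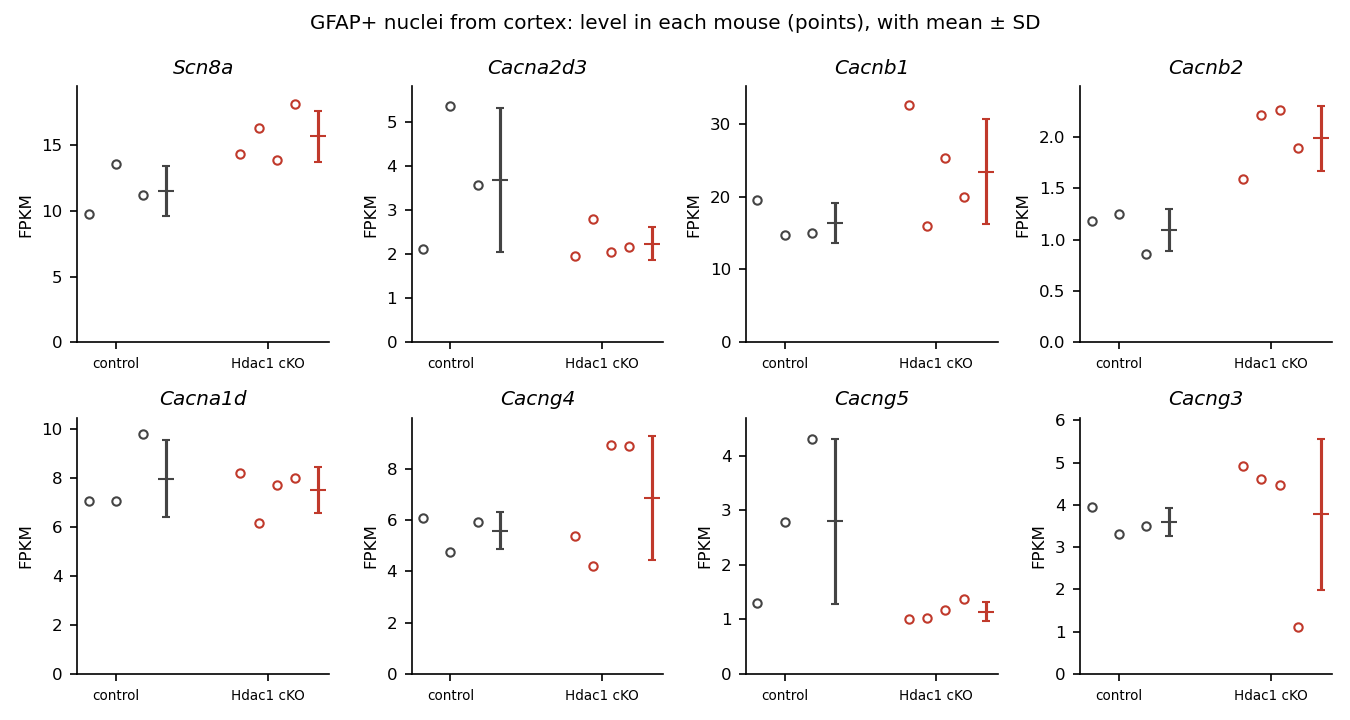
FPKM of named channel genes in each library of GFAP+ nuclei (points), with the mean and SD (bars), for 3 control and 4 Hdac1 cKO mice. Scn8a and Cacnb2 are higher in all 4 Hdac1 cKO libraries than in the 3 controls, and Cacng5 is spread in control and low in Hdac1 cKO nuclei.

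A list of 37 genes whose products bind, anchor or resemble these channels was read in the same fits. Between Hdac1 cKO and control mice none of the 30 tested was a DEG, against 3.36% of all genes, with a median log2 difference of 0.09. At an unadjusted p under 0.05, 4 were higher and none lower, where 4.91% of all genes were higher and 6.84% lower. In 5XFAD mice 5 of 30 were higher and 2 lower at an unadjusted p under 0.05, where 5.25% of all genes were higher and 5.46% lower. There 1 of the 30 was a higher and 1 a lower DEG, against 2.95% of all genes. Of these Hvcn1, a voltage-gated proton channel of microglia, was higher, from a mean of 0.78 FPKM to 2.76 FPKM (log2 difference 1.05, SE 0.20, adjusted p = 0.0299, limma), and in compound transgenic mice by 1.33 (adjusted p = 0.0942). It was also the sole DEG of 29 tested between compound transgenic and Hdac1 cKO mice (adjusted p = 0.0524, limma), against 3.55% of all genes. Microglial markers summed to between 1130 and 2290 FPKM in compound transgenic mice, with 8 of 10 higher than in control as DEGs, as in 5XFAD mice, and their part in Hvcn1 was not tested. Stac, which anchors L-type channels in the membrane, was lower in 5XFAD mice, from 1.80 to 0.818 FPKM (−0.63, adjusted p = 0.168, limma), and in compound transgenic mice by −0.72 (adjusted p = 0.239, limma). Sptbn4, the spectrin of the axon initial segment, had an interaction term of −0.86 (SE 0.19, adjusted p = 0.297, limma). Against the same control mice, at a mean of 3.58 FPKM, it was higher in both single genotypes. The log2 difference was 0.44 in Hdac1 cKO mice (mean 5.23 FPKM, adjusted p = 0.214, limma). In 5XFAD mice it was 0.41 (mean 5.12 FPKM, adjusted p = 0.291, limma). In GFAP+ nuclei none of the 31 tested was a DEG, against 2.58% of all genes, and none passed at an unadjusted p under 0.05 (limma), where 4.70% did.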

How the data were processed

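RNA-seq of 20 hippocampal samples and 7 samples of GFAP+ cortical nuclei was used, 1 library per mouse, in the groups given by the labels. The other 7 samples of the series, 1 of GFAP+ control nuclei and 6 of ChIP-seq, were not analysed here. The values deposited are FPKM, fragment numbers scaled to transcript length and to the mapped reads of the library. For hippocampus the authors made 3′ digital gene expression libraries, aligned reads with Tophat2 and computed FPKM with Cufflinks 2.0.0 on UCSC mm9 genes. Nuclei were sorted by FACS and amplified with SMART-Seq v4. Their aligner and build are not given apart from the submitters' processing notes, which list TopHat, Cufflinks 2.0.0 and mm9 for the series. The deposited values are normalized to library size, and the files hold no counts. The smallest steps between FPKM values gave relative depth and, for 12 members in hippocampus and 16 in nuclei, fragment numbers, within a tolerance of 0.2 and 0.1 of a whole fragment. Because whole fragments were not recovered for most genes, no count model was run.

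Genes reaching a mean of 0.5 FPKM over the compared mice were tested on log2(FPKM + 1) with limma 3.58.1 in R 4.3.3 (mean-variance trend, robust moderation, no covariate). Fold changes are on that scale and understate those of low genes. Only the groups compared were fitted, all 20 mice for the interaction. DEGs were called at 1.5-fold or more and an unadjusted p below 0.05, as in the study's methods, which name no test. Adjusted p-values are Benjamini-Hochberg values over all genes tested. Exact permutation tests were two-sided. Other steps used Python 3.11.15, numpy 2.4.6, pandas 2.3.3 and scipy 1.17.1. The fits were tested on simulated data. P-values measure the spread between the mice of these groups.

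The members, the list of 37 partner genes and the cell type marker lists were chosen with earlier results of these data known. Channel genes were named if a comparison called them, if their groups did not overlap or if they had an unadjusted p under 0.05. Those highest of their class by FPKM were also named, with further members named as low or as family neighbours after their values were seen. Counts of members cover all 40, but some members and sequences are not reported here. Promoters came from RefSeq (GRCm38.p6) by symbol. Alternatives were a lower pseudocount (0.1), a filter at 1 FPKM or none, median scaling, quantile normalization, limma without its trend and robust options, 1 fit of all hippocampal groups, an adjusted p, a replicate block, each mouse left out, levels multiplied by transcript length and, chosen after seeing the data, leaving out libraries rich in choroid plexus markers.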

Additional observations from a re-analysis of the deposited data

Results flagged for a closer look

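In 9 of 100 combinations of a member and a group of 4 or more mice, 1 mouse stood far from the others by Dixon's criterion, which chance alone meets in about 1 of 20. In hippocampus, Cacna1a stood at 3.45 FPKM in control 3 and at 2.53 to 2.62 FPKM in the other control mice. Cacnb1 stood at 15.9 FPKM in control 4, below 17.9 to 18.2 FPKM in the others. Cacna1e reached 7.9 FPKM in 5XFAD 1 (others 3.3 to 4.65 FPKM), Cacna2d2 fell short at 0.287 FPKM in 5XFAD 6 (others 0.865 to 1.13 FPKM), the library whose thalamic marker sum of 159.3 FPKM was the highest in hippocampus, and Scn3b stood at 57.4 FPKM in 5XFAD 2 (others 66.5 to 71.7 FPKM). Among TARP genes, Cacng4 stood at 0.877 FPKM in Hdac1 cKO 3 and at 0 in the others, Cacng7 at 1.46 FPKM in Hdac1 cKO 5 (others 0 to 0.274 FPKM) and Cacng8 at 5.99 FPKM in compound transgenic 4 (others 0 to 1.04 FPKM). In GFAP+ nuclei, Cacng3 stood at 1.12 FPKM in Hdac1 cKO 4 and at 4.47 to 4.91 FPKM in the other Hdac1 cKO libraries.

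The effect of Hdac1 loss differed between mice with and without 5XFAD at an unadjusted p under 0.05 and a fold of at least 1.5 for Cacna2d2 (interaction 0.75 on the log2 scale), Cacng7 (1.10) and Cacng8 (−1.38). None of these passed at an adjusted p under 0.05 (limma).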

How the results depend on the processing

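Over 475 alternative values of the 24 named differences, none reversed, 428 kept their direction and side of the threshold, 42 lost the call and 5 gained it. A pseudocount of 0.1 raised the count of member DEGs from 0 to 1 in Hdac1 cKO and in 5XFAD mice (Cacna2d2 in both). Of all genes, 4.61% and 4.45% were then DEGs, against 3.36% and 2.95% before. The member count rose from 2 to 3 in compound transgenic against Hdac1 cKO mice (Cacng5 added), with 4.91% of all genes against 3.55%. In compound transgenic against 5XFAD mice it fell from 2 to 1, while the share of all genes rose from 1.28% to 2.27%. That count was also 1 with a filter at 1 FPKM (1.19% of all genes) and with quantile normalization (1.23%). The filter left 1 of 2 in compound transgenic against Hdac1 cKO mice, with 3.43% of all genes. At an adjusted p under 0.05 the counts of compound transgenic against 5XFAD, compound transgenic against Hdac1 cKO, the interaction and the nuclei were all 0. Leaving out the 9 choroid-rich libraries was an alternative chosen after seeing the data. The count of member DEGs (1.5-fold and an unadjusted p under 0.05) was then 0 in compound transgenic against 5XFAD mice, with 2.11% of all genes. Against Hdac1 cKO mice it was 1, and the share over all genes in that fit is not given here. The 5 members without overlap between Hdac1 cKO and control mice were the same 5 under median scaling and quantile normalization. In nuclei, quantile normalization left Cacnb2 without overlap and replaced Scn8a by Cacng5, which was lower. Leaving out each mouse gave counts of 0 to 1 in the 3 comparisons with control hippocampus and 1 to 2 for compound transgenic against 5XFAD mice. The counts were 0 to 1 against Hdac1 cKO, 2 to 3 for the interaction and 0 to 2 in nuclei. The shares over all genes in these leave-one-out fits are not given here. Cacng4, Cacng7 and Cacng8 rest on 0 to 25 fragments in hippocampus, and the part of depth in these counts was not tested. Fitting all 4 hippocampal groups together does not apply to nuclei. The cause of these changes was not tested.

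Mice of equal replicate number did not deviate together (correlations −0.113 to 0.078), so the numbers do not pair them. With a replicate block, the count was 1 in Hdac1 cKO mice (Cacng7, −0.69), where 3.5% of all genes were DEGs. It was 1 in compound transgenic against 5XFAD mice, where 1.42% were. In nuclei it was 2 (Cacnb1 added, 0.61), with the share over all genes not given here, and the other counts did not change.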
